A study of Mus musculus with 8 samples.

Results

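The synaptic vesicle release machinery is described here without its SNARE proteins, as 33 genes in cultured mouse hippocampal neurons after loss and return of the splicing regulator Rbfox1. The genes were chosen by name and looked up by symbol, and all 33 were found among the 15598 genes of the knockdown and cytoplasmic rescue tables and the 15489 of the nuclear rescue table. The study held 8 samples in 4 groups of 2. Every group received an adeno-associated virus (AAV2/9) whose insert is driven by the synapsin promoter (SynI), given at 9 days in vitro (DIV), and siRNA from 10 DIV for 4 days, with RNA taken at 14 DIV. Control neurons carried EGFP and non-targeting siRNA, and knockdown neurons carried EGFP and siRNA to Rbfox1 and Rbfox3. The cytoplasmic rescue carried the same siRNA with Flag-Rbfox1_C_siMt, and the nuclear rescue carried it with Flag-Rbfox1_N_siMt. The cytoplasmic and nuclear splice isoforms of Rbfox1 were thus returned only where the synapsin promoter is active, while no promoter limited the siRNA to those cells. The labels do not say whether the samples of a group were separate cultures.

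Neurotransmitter is held in synaptic vesicles that dock at the active zone, a protein scaffold on the presynaptic membrane, and fuse when calcium enters. Synapsins tether the vesicles, synaptotagmins and Doc2 proteins sense calcium, complexins clamp and assist the SNARE fusion complex, and NSF with its SNAP adaptors takes the used complex apart. Rbfox proteins bind the RNA sequence UGCAUG; nuclear isoforms act on splicing and cytoplasmic isoforms on messenger RNA in the cytoplasm.

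All expression values are FPKM, fragments scaled by transcript length and library size, given by the authors once per group. The spread between the samples of a group therefore cannot be shown. The error quoted for a log2 fold change is the change divided by the authors' test statistic, called the implied error, and a call is the authors' q below 0.05. Rbfox1 stood at 25.7, 1.94, 16.1 and 38.2 FPKM in control, knockdown, cytoplasmic and nuclear rescue, and Rbfox3 at 12.4, 1.59, 1.59 and 1.53. The nuclear rescue held 2.38 times the Rbfox1 RNA of the cytoplasmic rescue, so isoform and amount cannot be told apart. Rbfox2, a paralog that was not targeted, stood at 35.4, 42.1, 33.2 and 17.7 FPKM. Pan-neuronal markers summed to 2549, 2490, 2495 and 2553 FPKM over 13 genes listed of 14, and markers of excitatory neurons to 352, 325, 318 and 339 over 8 of 9. The pan-neuronal list holds the siRNA target Rbfox3 and the SNARE gene Snap25. In the knockdown 7 of its genes lay below control, such as Snap25 (455.7 to 323 FPKM), and 6 above, such as Tubb3 (291.5 to 408). Its sum thus combines changes of both signs. The excitatory list holds Slc17a7 and Slc17a6, 2 of the 33 genes, which gave 171, 149, 140 and 147 FPKM of its sums. RNA of other cells was present as well. Astrocyte markers summed to 1965, 2018, 1814 and 1859 FPKM (12 of 12 genes), oligodendrocyte markers to 282, 299, 281 and 308 (13 of 13), microglia markers to 25.2, 16.6, 19.1 and 15.8 (11 of 12) and inhibitory neuron markers to 388, 247, 250 and 247 (13 of 13). No listed marker of these types was at 0 in any group.

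In control neurons the 33 genes ran from 0.278 to 249.9 FPKM. The highest was Nsf, the ATPase that disassembles SNARE complexes, at 249.9 FPKM, with 226, 235 and 220.1 in knockdown, cytoplasmic and nuclear rescue. Syp, the vesicle membrane protein synaptophysin, had 234 FPKM in control and 239, 209.6 and 246 in the other groups in that order. Napb, the brain form of the adaptor that loads NSF onto SNAREs, had 230.5 FPKM. Sv2b, a glycoprotein of the vesicle membrane, had 162 FPKM and then 129, 135 and 124. Slc17a7, the vesicular glutamate transporter VGLUT1, had 160.4 FPKM and then 140.4, 130.5 and 139. These are the 5 highest, and in all 8 genes lay at 100 FPKM or more, 15 between 10 and 100, and 8 between 1 and 10. Syn3, a synapsin, and Rph3al, a rabphilin relative also called Noc2, were below 1 FPKM in every group, at 0.540 and 0.278 in control.

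**Figure D1:**
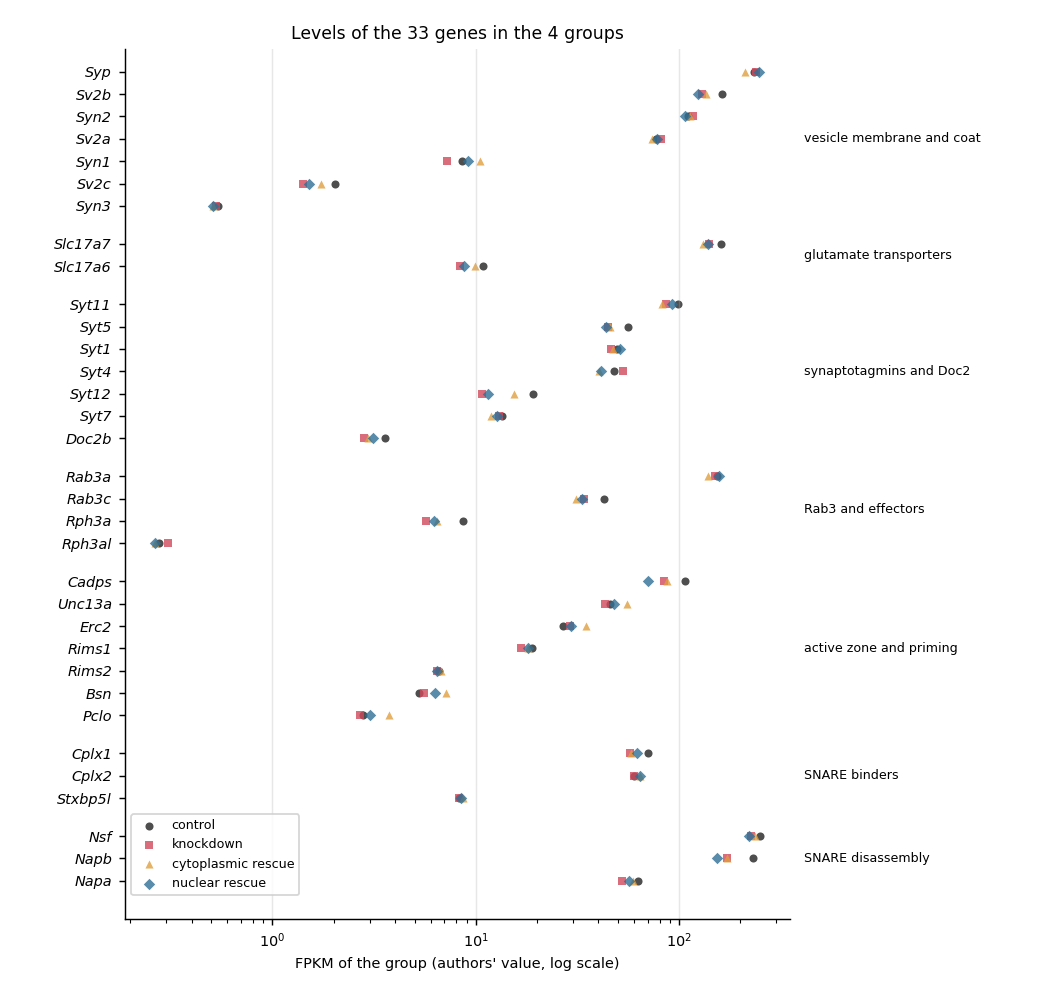
Level of each of the 33 genes (rows, grouped by role) on a logarithmic FPKM axis, with 1 point per group as given by the authors. The points of most genes lie close together, while the control point of Syt12 (19.0 FPKM) and of Rph3a (8.69) stands to the right of the other groups.

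Within related genes one member usually carried most of the RNA. Syn2 gave 92.4% of the summed synapsin FPKM in control and 93.8%, 91.1% and 91.7% in knockdown, cytoplasmic and nuclear rescue. Slc17a7 gave 93.7% of the FPKM of both glutamate transporters in control and 94.4% in knockdown. The complexins were nearly even, with Cplx1 at 53.9% in control against 49.0%, 47.2% and 49.2% in the other groups. Rab3a, the small GTPase that marks vesicles for docking, gave 78.2% of the FPKM of Rab3a and Rab3c in control and 81.6% in knockdown. Among the 6 synaptotagmins Syt11, which does not bind calcium, had the most RNA in control with 98.8 FPKM, against 86.4, 82.3 and 91.9 in the other groups. None of these shares was tested, because each rests on 1 value per group.

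In the knockdown 2 of the 33 genes fell, Syt12 and Rph3a, and none rose. Among all 15598 genes 2.35% were called, 1.58% as lower and 0.776% as higher. Syt12, a synaptotagmin that does not bind calcium through its C2 domains, lies at chr19:4425457-4477143 (mm9). It had 19.0 FPKM in control, 10.7 in knockdown, 15.4 in the cytoplasmic rescue and 11.5 in the nuclear rescue. Control was the highest group, the cytoplasmic rescue came next, and knockdown and nuclear rescue were low. In the authors' deposited table the knockdown change of Syt12 was -0.83 on the log2 scale (implied error 0.133, q = 3.36e-07), leaving 56.1% of control. Rhod, which the authors placed in the same locus as Syt12, had 3.09, 2.90, 2.90 and 2.92 FPKM, and in the GENCODE M21 annotation (GRCm38) the exons of both genes share 0 bases.

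Rph3a, or rabphilin, binds Rab3 on the vesicle through one end and calcium and membrane through its C2 domains (chr5:121390509-121459527, mm9). It had 8.69 FPKM in control, 5.70 in knockdown, 6.41 in the cytoplasmic rescue and 6.25 in the nuclear rescue. Control alone was high, and the other groups lay within 1 FPKM of each other. In the authors' deposited table the change of Rph3a in the knockdown was -0.61 on the log2 scale (implied error 0.134, q = 0.00129). Its relatives Doc2b and Rph3al, with C2 domains or a Rab3-binding end, were not called. Doc2b, a high-affinity calcium sensor, had 3.56 and 2.80 FPKM in control and knockdown (q = 0.568 in the authors' deposited table), and Rph3al had 0.278 and 0.305. Their 95% intervals from the implied error were -0.64 to -0.04 and -0.81 to 1.08 on the log2 scale. Both intervals include the change of Rph3a.

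Another 7 genes lay below control at an unadjusted p below 0.05 without passing q, so that 9 of 33 genes reached that p, all of them lower. Over all genes 10.9% reached it, 5.46% as lower and 5.44% as higher. Log2 changes of these 7 ranged from -0.51 to -0.29 and their q from 0.171 upward in the authors' deposited table. Sv2c, an SV2 form prominent in the basal ganglia, had 2.02 FPKM in control against 1.41, 1.74 and 1.52 in knockdown, cytoplasmic and nuclear rescue. Slc17a6, the transporter VGLUT2, had 10.8 against 8.36, 9.85 and 8.70 FPKM. Napb had 230.5 against 172, 172 and 153 FPKM. Control was the highest group for all 3 of these genes, and the nuclear rescue was the lowest for Napb alone.

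The other 4 were Syt5, a calcium-binding synaptotagmin, with 56.2 FPKM in control and 44.6, 45.8 and 43.4 in the other groups, Rab3c, Cplx1 and Doc2b. Rab3c had 42.8 against 33.9, 31.0 and 33.1 FPKM, and Cplx1 had 70.0 (69.98) against 57.4, 57.6 and 62.0. Doc2b had 3.56 against 2.80, 2.95 and 3.12 FPKM. In all 9 genes both rescues stayed below control. The level of the cytoplasmic rescue was nearer to control than the knockdown level in 7 of the 9 and that of the nuclear rescue in 6 of the 9. The 9 genes were picked for a low knockdown level against control, and that choice alone favours rescue levels between the knockdown and control levels. These counts also share the control, were not set against other genes picked the same way, and are given without a test.

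**Figure D2:**
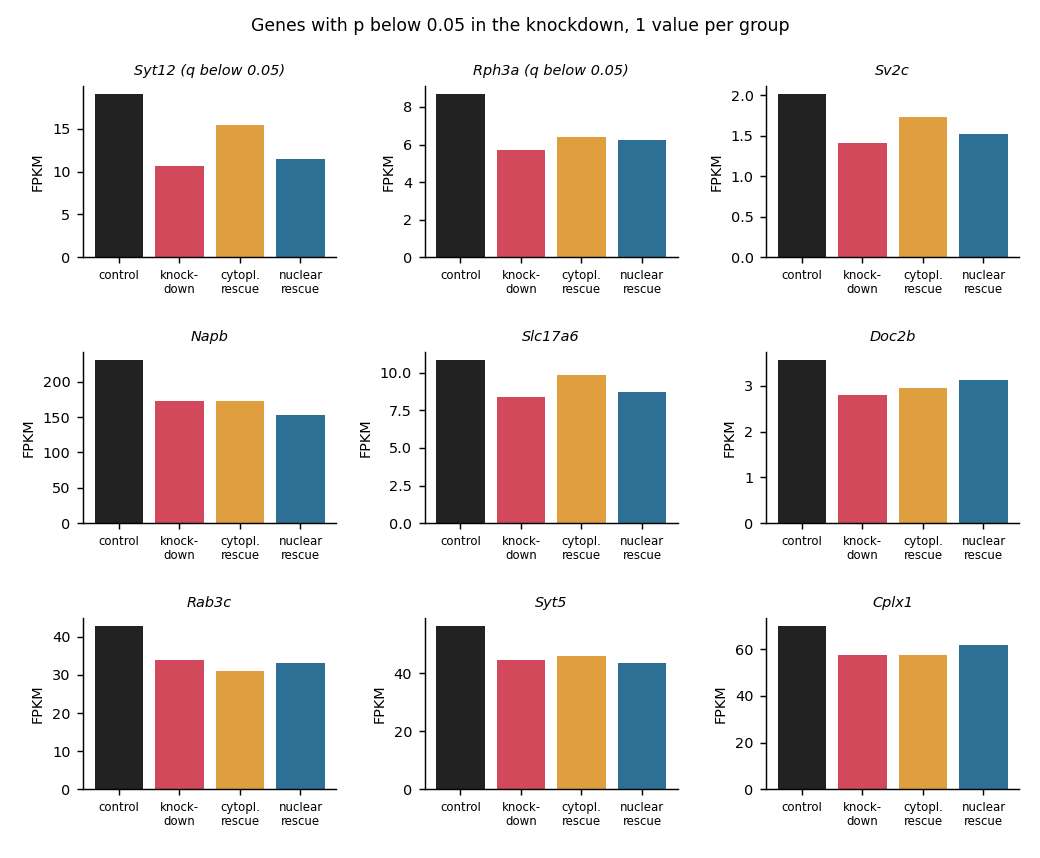
FPKM (vertical axis from 0) in the 4 groups for the 9 genes with an unadjusted p below 0.05 in the knockdown, 1 value per group and no error bar because the authors combined the samples. Control is the tallest bar in every panel, and Syt12 is the gene whose cytoplasmic rescue (15.4 FPKM) stands well above its knockdown (10.7).

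For several core genes the change was smaller than its implied error. Syt1, the main calcium sensor of fast release, had 49.3 FPKM in control and 46.4 in knockdown, a log2 change of -0.09 (implied error 0.154, authors' deposited table). Unc13a, which primes vesicles, had 45.5 and 43.0 FPKM, Rab3a 153 and 150.0, Cplx2 59.8 and 59.7, and Syp 234 and 239. The active zone scaffolds Bsn (bassoon) and Pclo (piccolo) had 5.25 and 5.57 FPKM and 2.78 and 2.71 FPKM. For these genes the q was 1 in the authors' deposited table, which does not show that they were unchanged. Values above control that did not pass were close to it. Erc2 had 26.9 and 29.2 FPKM, Sv2a, the most widely expressed SV2 protein, had 76.7 and 81.5, and Syn2 had 109.9 and 116.3. Syn3, Rph3al and Syn1 were measured poorly, with implied errors of 0.956, 0.485 and 0.322. Exons of Syn3 share 1733 bases with exons of Timp3 on the other strand (GRCm38), and the libraries carry no strand information.

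By direction, 26 of the 33 genes lay below control in the knockdown and their median log2 change was -0.15. Of the 31 that had at least 1 FPKM, 25 lay below control, with a median of -0.19. Among all genes of at least 1 FPKM 42.4% lay below control, with a median of 0.03. The role groups were set after the values were seen, so counts by role only describe these values. By role, all 3 SNARE disassembly genes lay below control (Nsf 249.9 to 226, Napa 62.7 to 52.4 and Napb 230.5 to 172 FPKM), as did 6 of the 7 genes made up of the synaptotagmins and Doc2b. The exception was Syt4, a calcium-insensitive synaptotagmin induced by activity, with 47.7 and 53.2 FPKM. By the authors' q, 3 of 11 microglia markers and 3 of 13 inhibitory neuron markers were called lower. Of 13 oligodendrocyte markers 3 were called higher and 1 lower. Pan-neuronal markers held 2 called falls, Rbfox3 itself among them, and 1 called rise. Neurod2, lower, was the 1 call among excitatory neuron markers, and astrocyte and vascular markers held none. Over all genes 1.58% were called lower and 0.776% higher. By direction alone, 10 of 11 microglia, 11 of 13 inhibitory and 4 of 13 oligodendrocyte markers lay below control. So did 7 of 13 pan-neuronal, 6 of 8 excitatory, 5 of 12 astrocyte and 1 of 6 vascular markers. The excitatory count includes Slc17a6 and Slc17a7, which belong to the 33 genes. The part of these cell types in the result was not tested. In bulk RNA fewer cells of a type and less RNA per cell cannot be told apart.

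**Figure D3:**
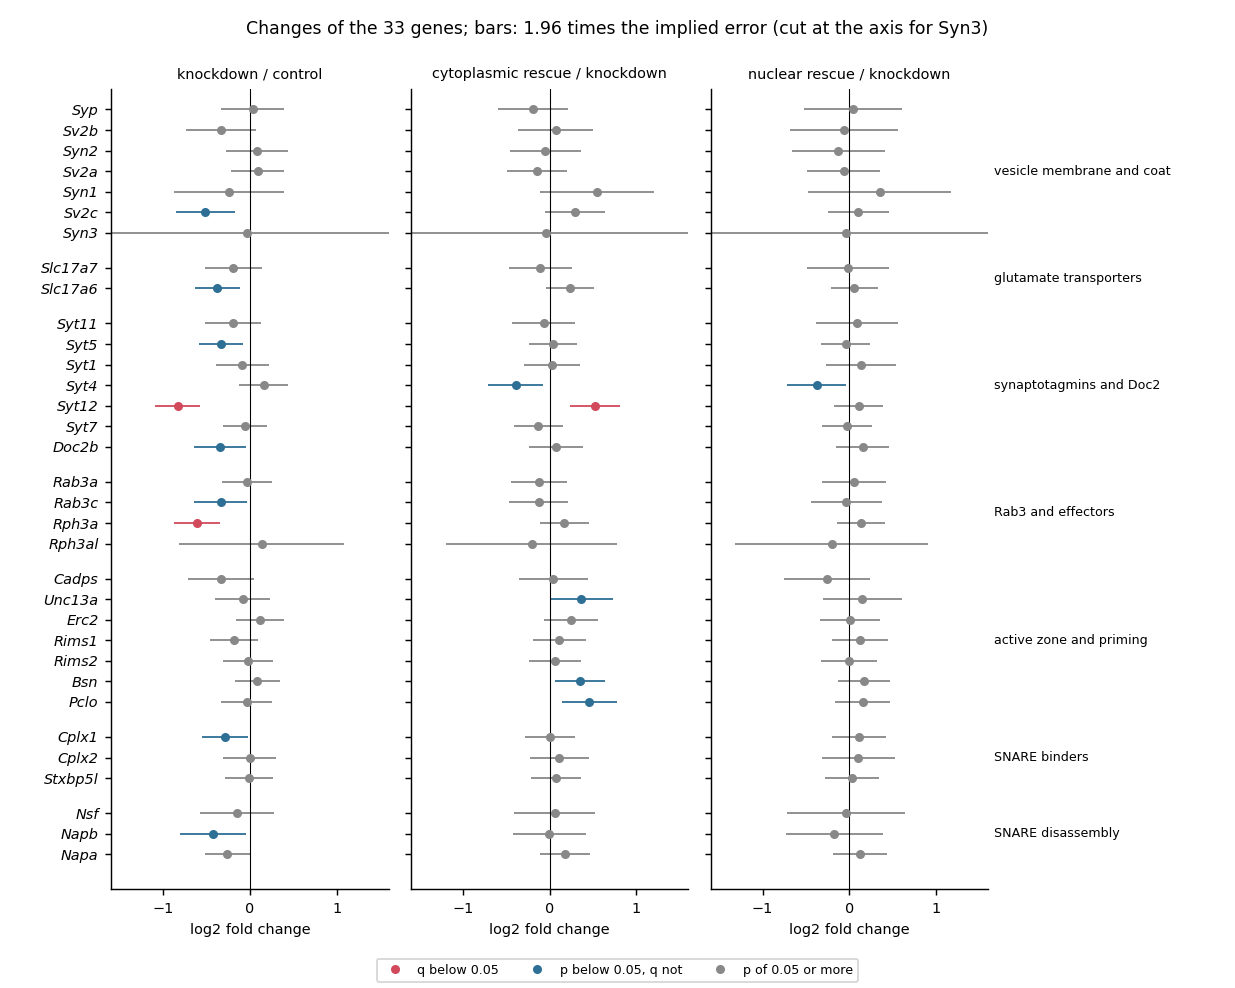
Log2 fold change of each gene in the 3 comparisons (panels), with bars of 1.96 times the implied error. In the knockdown panel Syt12 and Rph3a are called, in the cytoplasmic panel Syt12 is called, and in the nuclear panel no gene is.

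Return of the cytoplasmic isoform raised 1 of the 33 genes, Syt12, and lowered none. Over all genes 0.506% were called in that comparison, 0.333% as higher and 0.173% as lower. Syt12 went from 10.7 to 15.4 FPKM, which is 80.7% of control. In the authors' deposited table the log2 change of Syt12 against knockdown was 0.53 (implied error 0.147, q = 0.0352). The call from the authors' deposited table is lost at q 0.01 and when q is recomputed in that table alone (q = 0.0817). Both rescue comparisons and the knockdown comparison share the knockdown samples, so a low knockdown value makes a fall and a later rise together.

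Several active zone genes had their highest FPKM in the cytoplasmic rescue, although none was called. Pclo had 2.78, 2.71, 3.72 and 3.01 FPKM in control, knockdown, cytoplasmic and nuclear rescue, a log2 change of 0.46 against knockdown (implied error 0.161, p = 0.00438 and q = 0.215 in the authors' deposited table). Bsn had 5.25, 5.57, 7.09 and 6.28 FPKM (p = 0.0175, q = 0.480 in the authors' deposited table). Unc13a had 45.5, 43.0, 55.4 and 47.7 FPKM (p = 0.0444, q = 0.752 in the authors' deposited table). In these 3 genes the cytoplasmic rescue was above control too, at 134%, 135% and 122%. Erc2, another active zone scaffold, had 26.9, 29.2, 34.7 and 29.4 FPKM. Rims1, which links vesicles to calcium channels, had 18.9, 16.6, 18.0 and 18.1 FPKM, and its relative Rims2 had 6.55, 6.45, 6.75 and 6.44. With Cadps, a priming factor of dense-core vesicles, all 7 genes of the active zone and priming group lay above knockdown, where 30.9% of genes of at least 1 FPKM did. That group was set after the values were seen, so the count is a description and not a test. Its direction was not shared by 40 further release genes, of which 18 lay above knockdown and 22 below, with a median of -0.06. At an unadjusted p below 0.05 in the authors' deposited table, 5 of these were lower and 1 higher, and none was called. The lower ones included Rimbp2, Rims4 and Cadps2, with log2 changes of -0.40, -0.39 and -0.39.

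Of the 33 genes only Syt4 was lower with the cytoplasmic isoform at an unadjusted p below 0.05 in the authors' deposited table. It had 53.2 FPKM in knockdown, 40.5 in the cytoplasmic rescue and 41.0 in the nuclear rescue, so both rescues were below knockdown and below control (47.7). In the authors' deposited table the log2 change of Syt4 was -0.39 (implied error 0.159, q = 0.416) with the cytoplasmic and -0.38 (implied error 0.175, q = 0.648) with the nuclear isoform. In all, 4 genes lay higher and 1 lower at that p with the cytoplasmic isoform, where 1.87% and 3.47% of all genes did, 5.33% together. The median log2 change of the 33 genes was 0.06, with 21 above 0, against a median of -0.06 for genes of at least 1 FPKM. For the 31 of the 33 at that level the median was 0.07, with 21 above 0. Syn1, a synapsin, had 8.52, 7.21, 10.5 and 9.18 FPKM in control, knockdown, cytoplasmic and nuclear rescue, the highest log2 change against knockdown in both rescues, with implied errors of 0.337 and 0.422 in the authors' deposited tables. With the cytoplasmic isoform 12 of the 33 genes had values below knockdown. At 1 FPKM or more the lowest log2 changes after Syt4 were those of Syp, of Sv2a (81.5 to 73.8 FPKM, and 78.1 with the nuclear isoform), of Syt7, a slow calcium sensor (13.5, 12.9, 11.8 and 12.7 FPKM over the groups), and of Rab3c, and none passed.

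With the nuclear isoform 0 of the 33 genes were called in the authors' deposited table, against 0.11% of all genes, and 1 gene, Syt4, had an unadjusted p below 0.05, against 1.05% in all and 0.484% as lower. Syt12 had 11.5 FPKM, 60.5% of control, and its log2 change against knockdown was 0.11 (95% interval from the implied error, -0.18 to 0.39). Rph3a reached 71.9% of control. Cadps had 107 FPKM in control, 84.5 in knockdown, 87.1 in the cytoplasmic rescue and 70.6 in the nuclear rescue, the lowest group, with a log2 change against knockdown of -0.26 (implied error 0.253, authors' deposited table). The median log2 change was 0.04, with 19 of 33 above 0, where 44.8% of genes of at least 1 FPKM were. For the 31 of the 33 at that level the median was 0.06, with 19 above 0.

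The rescues were compared directly by a z test that subtracts one log2 fold change from the other, adjusted over 15365 genes (Benjamini-Hochberg). No gene of the 33 passed (4 genes, 0.026%, did over the whole table), and 1 of the 33, Syt12, had an unadjusted p below 0.05, against 0.794% of all genes. Syt12 was lower with the nuclear than with the cytoplasmic isoform by the z test, a difference of -0.42 on the log2 scale with a 95% interval of -0.82 to -0.01 that did not pass after adjustment. Pclo differed by -0.31 (-0.76 to 0.14) and Cadps by -0.30 (-0.94 to 0.34). The z test counts the shared knockdown error in both arms and so is conservative.

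Relatives of these genes were read from other lists. Of 40 further release genes measured, Rab27b, a GTPase of secretory vesicles, fell from 6.35 to 4.48 FPKM (q = 0.0198 in the authors' deposited table). Cadps2, the paralog of Cadps, rose from 7.26 to 11.3 FPKM in the knockdown (q = 0.01004 in the authors' deposited table) and had 8.62 and 10.5 FPKM in the rescues. Cadps and Cadps2 thus had opposite signs in the knockdown, of which that of Cadps did not pass. None of 23 endocytosis genes or 15 subunits of the vesicular ATPase was called in any table. Of 16 SNARE genes Vamp1 and Stx3 were called in every table, with opposite signs. Vamp1 had 33.3, 7.18, 17.6 and 26.5 FPKM in control, knockdown, cytoplasmic and nuclear rescue, and Stx3 had 7.49, 15.8, 9.78 and 9.16. Over all genes 2.35% were called in the knockdown, 0.506% in the cytoplasmic and 0.11% in the nuclear comparison. In the knockdown the medians of these lists were -0.07 (release genes), 0.03 (endocytosis), -0.15 (ATPase) and -0.13 (SNAREs) on the log2 scale.

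Cassette exons, which are kept or skipped as a unit, were listed in 4 of the 33 genes: 1 exon each in Stxbp5l, Rims1 and Erc2 and 2 in Cadps. The authors' tables list exons they called, 214 for the knockdown, 150 for the cytoplasmic and 318 for the nuclear rescue. The 5 exon sequences are shown because they are the stretches of these proteins that the groups kept to different degrees. Each was read from a GENCODE M21 transcript (GRCm38) in the direction of transcription, after an exon of the same gene with the same length and the same adjoining intron lengths was found. Capitals mark TGCATG, the Rbfox motif in DNA letters.
Stxbp5l exon, chr16:37186737-37186808 (mm9, minus strand): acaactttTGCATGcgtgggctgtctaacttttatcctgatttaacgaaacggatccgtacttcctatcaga
Rims1 exon, chr1:22422853-22422924 (mm9, minus strand): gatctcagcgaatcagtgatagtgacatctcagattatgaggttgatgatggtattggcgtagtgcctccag
Erc2 exon, chr14:28842620-28842655 (mm9, plus strand): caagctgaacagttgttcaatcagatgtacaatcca
Cadps longer exon, chr14:13290197-13290343 (mm9, minus strand): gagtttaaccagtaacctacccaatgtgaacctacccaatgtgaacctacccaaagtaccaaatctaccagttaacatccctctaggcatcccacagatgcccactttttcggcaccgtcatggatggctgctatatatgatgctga
Cadps shorter exon, chr14:13319039-13319107 (mm9, minus strand): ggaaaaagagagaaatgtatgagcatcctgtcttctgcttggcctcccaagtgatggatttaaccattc
All 5 are coding in at least 1 annotated transcript and have lengths that are multiples of 3 (72, 72, 36, 147 and 69 nt), as have 60.4% of the 550 distinct exons listed. Both adjoining introns matched except for Rims1, where 1 did, and annotated transcripts that skip the exon exist for all but the Rims1 exon. On the transcript strand, the Stxbp5l exon holds TGCATG once, and the other 4 hold neither TGCATG nor the shorter GCATG contained in it. TGCATG occurs in 1.14% of the 1409 internal GENCODE exons of 72 nt. The share is 1.12% at 36 nt, 1.30% at 69 nt and 4.21% at 147 nt, the lengths of the other exons searched. A match is a description of the letters and not of binding, and the introns were not searched.

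Stxbp5l, or tomosyn-2, binds SNAREs in place of the vesicle SNARE and so restrains release. Its exon had an authors' inclusion fraction of 0.563 in control, 0.674 in knockdown, 0.526 in the cytoplasmic rescue and 0.347 in the nuclear rescue. Inclusion was highest in the knockdown and lowest in the nuclear rescue. Reads that skip the exon numbered 63, 53, 64 and 91, and the mean of reads on its 2 inclusion junctions was 84, 111, 81 and 50. From these reads inclusion was 57.1% (95% exact interval 48.7 to 65.3), 67.7% (59.9 to 74.8), 55.9% (47.4 to 64.1) and 35.5% (27.6 to 44.0). Intervals cover counting error only, since the reads of a group are pooled.

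Fisher's exact test on junction reads (two-sided, adjusted over each table) gave p = 0.117 for Stxbp5l in the knockdown, 0.0992 in the cytoplasmic and 1.49e-07 in the nuclear comparison. By that test the nuclear change passed and the other 2 did not, where 53.5% (nuclear), 32.2% (knockdown) and 20.7% (cytoplasmic) of the listed exons passed. The nuclear rescue was also below control (Fisher's exact adjusted p = 0.00415 over 66 exons listed in both tables) and below the cytoplasmic rescue (adjusted p = 0.00378 over 45 exons), whereas the difference between cytoplasmic rescue and control did not pass (adjusted p = 1 over 48 exons). These tests compare the pooled libraries and not the conditions. The listed exons had already been called by the authors from the same libraries, so passing is partly set in advance. The adjustment covers listed exons alone. Both limits hold for the other exons below as well. The level of Stxbp5l RNA was 8.27, 8.23, 8.66 and 8.42 FPKM in the 4 groups, so its exon differed while its FPKM stayed within 1 implied error.

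**Figure D4:**
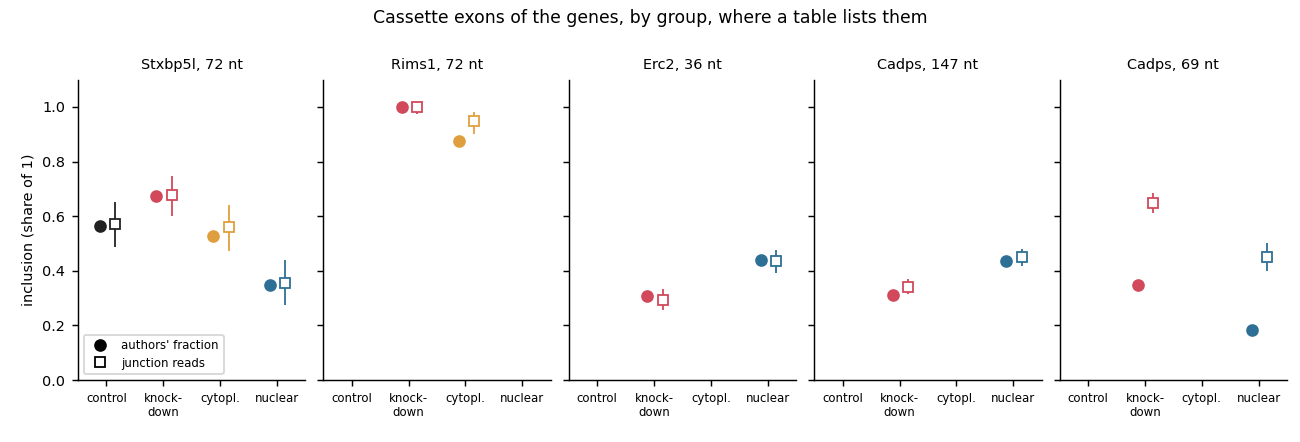
Inclusion of the 5 exons (vertical axis, share of 1) in the groups for which a table lists them. Filled circles are the authors' fraction and open squares the share from junction reads with its 95% exact interval, and the Stxbp5l panel goes from 0.674 in knockdown to 0.347 in the nuclear rescue.

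With the nuclear isoform 3 other exons were listed. The exon of Erc2, a scaffold that binds Rims1 and bassoon, went from 0.309 in knockdown to 0.438. Its junction reads gave 29.5% (25.7 to 33.4) and 43.5% (39.3 to 47.7) with a Fisher's exact adjusted p of 5.42e-06. The longer Cadps exon went from 0.311 to 0.436, and its junction reads gave 34.2% (31.6 to 36.9) and 45.0% (41.9 to 48.1), with a Fisher's exact adjusted p of 1.21e-06. Both exons were thus more included, while the shorter Cadps exon was less included, at 0.347 and 0.185 (Fisher's exact adjusted p = 8.18e-09). For the shorter exon the junction reads were uneven, 107 on the side of lower coordinates and 714 on the other in knockdown, and they gave 64.9% and 45.0%, above the authors' fractions. The longer Cadps exon was uneven too, with 230 and 632 reads in knockdown. With the smaller junction alone the Fisher's exact adjusted p was 1.58e-05 for the shorter exon, 1.22e-05 for the longer and 0.000298 for Erc2. Rbfox2 was lower in the nuclear rescue as well (42.1 to 17.7 FPKM), and its part in these exons and in that of Stxbp5l was not tested.

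The Rims1 exon was listed for the cytoplasmic rescue alone, with 0.999 in knockdown and 0.876 after rescue. In knockdown 0 reads skipped it. Its inclusion junctions held 263 and 21 reads there, so a count of 0 allows a skipped share of up to 2.11% against their mean of 142 and up to 14.3% against the smaller one. After rescue 7 reads skipped it, leaving 95% inclusion (89.97 to 97.97). Fisher's exact adjusted p was 0.0344, but with the smaller inclusion junction, of 21 and 32 reads, it was 0.195. Exons of these genes that are not listed were not analysed here, so the tables do not show whether the Erc2, Cadps and Rims1 exons differed between control and knockdown.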

How the data were processed

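RNA-seq of 8 samples (4 groups of 2) was read from 3 tables of gene expression and 3 of splicing. Each table sets 1 group against another. Ribosomal RNA was depleted and libraries were sequenced as pairs of 50 nt without strand, per the labels' protocols. The submitters' processing notes name CASAVA, Cufflinks and build mm9, whose versions are not stated. For each gene and group the authors deposited 1 FPKM, and for each comparison a log2 fold change, a test statistic, a p-value and a q-value. The splicing tables, from SpliceTrap per the file names, hold for each group an inclusion fraction as deposited, the deposited difference between them as a score, a p-value, and deposited counts of junction reads (19 to 13410 per exon and group). Another 36 value columns were not used. Library totals were not used here, so depth per sample is unknown. Nothing in the labels says whether samples came from separate cultures, and p-values may reflect technical spread.

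The 33 genes and the gene lists were chosen with earlier results of these data known, and the role groups were set after the values were seen. To obtain the implied error, the log2 fold change was divided by the deposited statistic. The deposited p-value equals the normal tail of that statistic within 2.81e-06. Values in full were set for genes called or with an unadjusted p below 0.05 in a table, those with a listed exon, the 5 highest in control, and the 5 largest falls and rises of each comparison at 1 FPKM or more. Others of the 33 were named to account for every gene. Relatives were counted by list and named if called or with a listed exon. The marker lists cover pan-neuronal, excitatory, inhibitory, astrocyte, oligodendrocyte, microglia and vascular genes. Inclusion from junction reads is the mean of both inclusion junctions over that mean plus the skipping reads. On simulated data the z test recovered 59% of genes changed by 1 and 94% of those changed by 2 on the log2 scale among 14874 genes, with 0 false calls. The junction test recovered 95% of exons changed by 0.3 among 318, with 4 false calls. Smaller changes, such as the -0.42 of Syt12 between the rescues, were not simulated. Simulated errors were drawn from the implied errors, so the simulation does not check those errors. Python 3.11.15, scipy 1.17.1 and pandas 2.3.3 were used.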

Additional observations from a re-analysis of the deposited data

Results flagged for a closer look

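The Stxbp5l exon stood out because its junction reads differed between the 2 rescues by a direct test. Junction reads gave 35.5% inclusion in the nuclear rescue and 55.9% in the cytoplasmic rescue (Fisher's exact adjusted p = 0.00378 over 45 exons listed in both rescue tables, 10 of which passed). The reads of each group are pooled, so the test compares the pooled libraries and not the conditions. Only exons that the authors had called in both rescue comparisons entered the adjustment. The authors' fractions were 0.347 and 0.526. The nuclear rescue also held 2.38 times the Rbfox1 RNA of the cytoplasmic rescue, so isoform and amount cannot be told apart. Rbfox2 differed as well, at 17.7 FPKM in the nuclear and 33.2 in the cytoplasmic rescue, and its part in this exon was not tested.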

How the results depend on the processing

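The 2 knockdown calls, Syt12 and Rph3a, were made under all 5 other settings tried (q 0.01, q recomputed per table, an FPKM minimum of 1, and log2(FPKM + 1) or log2(FPKM + 0.1) changes of 0.5 or more). The 1 call in the cytoplasmic rescue, Syt12, became 0 at q 0.01, 0 with q recomputed and 0 when the log2(FPKM + 1) change had to reach 0.5, where it was 0.49. The 0 calls of the nuclear rescue and of the comparison of the rescues stayed 0 under each alternative run, and the median changes kept their sign. Requiring an inclusion difference of 0.15 left 0 listed exons in the knockdown, 0 in the cytoplasmic and 2 in the nuclear table. Fisher's exact test on junction reads, adjusted over exons the authors had already called, left 0, 1 and 4. Using summed or the smaller inclusion junction, alternatives chosen after seeing the data, it left 0 and 0 in the knockdown, 1 and 0 in the cytoplasmic and 4 and 4 in the nuclear table. No paired analysis was possible because the tables hold 1 value per group, and leaving out replicates was not run for the same reason.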

Other observations

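Exons of vesicle recycling genes were listed as well. With the nuclear isoform the Clta exon of 36 nt, in the clathrin light chain that coats recycling vesicles, went from 0.817 to 0.600 in the authors' fraction, with 896 and 1874 skipping reads (Fisher's exact adjusted p = 6.55e-102). In Synj1, a lipid phosphatase that helps strip the clathrin coat, a 24 nt exon had fractions of 0.999 and 0.865 on 0 and 5 skipping reads (Fisher's exact adjusted p = 0.0332). In Cadps2 an exon of 120 nt had fractions of 0.232 and 0.395 (Fisher's exact adjusted p = 0.0175). Exons of Ppfia1 (0.550 to 0.655, nuclear), Dnm3 (0.568 to 0.715, knockdown) and Itsn1 (0.880 to 0.754, cytoplasmic) were listed without passing that test (Fisher's exact adjusted p = 0.179, 0.117 and 0.314). Among SNARE genes, a Stx3 exon of 46 nt had fractions of 0.563, 0.102, 0.302 and 0.478 in control, knockdown, cytoplasmic and nuclear rescue, and each step from or to knockdown passed Fisher's exact test (adjusted p = 7.01e-19, 6.82e-07 and 6.76e-18). A Stx3 exon of 100 nt was listed for the knockdown (0.809 to 0.942) and the nuclear rescue (0.996 to 0.782). Both listings passed (Fisher's exact adjusted p = 8.01e-05 and 2.76e-16). They give the knockdown group different values, 0.942 on 31 skipping reads and 0.996 on 2, and so are not 1 series. A Snap25 exon of 118 nt had fractions of 0.999, 0.802, 0.996 and 0.999 over the groups. No step of the Snap25 exon passed (Fisher's exact adjusted p = 0.117, 0.476 and 0.306). Fisher's test compares pooled libraries here too, over exons the authors had already called.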
